A study of Homo sapiens with 10 samples.

Results

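The 76 cytosolic ribosomal protein genes are described here in 2 human glioblastoma lines during treatment with dibutyryl cAMP (dbcAMP). They are the genes of the expression table named RPL or RPS with a number, with or without a final A or X, together with RPLP0, RPLP1, RPLP2 and RPSA. The table holds 20379 genes. Of the 76 members, 46 encode proteins of the large ribosomal subunit and 30 encode proteins of the small subunit. Poly(A) RNA was sequenced from DBTRG-05MG and U87, established glioblastoma cell lines, at 0, 6, 12, 24 and 48 h with 1 mM dbcAMP. This compound enters cells, mimics cyclic AMP and switches on protein kinase A. Each line and time is represented by 1 library, 10 in all, so no condition has a replicate, and no untreated library of a later time was analysed. The 0 h library of each line is therefore the only reference, and treatment and time in culture cannot be told apart. Levels were read as FPKM, fragments per kilobase of transcript scaled to library size, a unit inferred from the values.

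Absolute depth is unknown, and no library was more than 116.8% as deep as the shallowest, DBTRG-05MG at 0 h. Of 9 glia and glioma markers, 4 reached a mean of 1 FPKM, namely VIM, CD44 and NES, detected in both lines, and SOX2. The astrocyte marker GFAP did not exceed 0.51 FPKM in any library. The highest values of S100B, AQP4, CHI3L1 and OLIG2 were 0.50, 0.145, 1.17 and 2.01 FPKM. SOX2 lay between 23.0 and 36.6 FPKM in the DBTRG-05MG libraries and was listed at 0 in all 5 U87 libraries. All 5 leukocyte and all 3 endothelial markers stayed under the level tested, with summed levels of at most 0.49 and 0.12 FPKM. Of 3 neuron markers, SYP and RBFOX3 also stayed under it, at up to 0.93 and 0.19 FPKM. The third, TUBB3, lay between 34.5 and 43.2 FPKM in DBTRG-05MG and between 186 and 270 FPKM in U87. The non-coding RNA BCYRN1 took 0.58 to 3.37% of total FPKM in DBTRG-05MG and 7.38 to 13.3% in U87. Its part in the results below was not tested, beyond the values given without it.

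Cytosolic ribosomes join a small subunit, which holds the mRNA and reads its codons, to a large subunit, which forms peptide bonds. Their proteins are needed in matched amounts, and most of their mRNAs begin with a 5′ terminal oligopyrimidine (TOP) tract, a C followed by further C and T bases, through which the kinase mTORC1 and the protein LARP1 set how strongly they are translated. In cancers such as glioblastoma, ribosome production is commonly raised by MYC and mTORC1. An mRNA level does not show how much of it was translated.

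The starts of representative members are printed because the TOP tract is the element that these mRNAs share. Each line gives 15 bases before and 15 bases from the annotated RefSeq start, 5′ to 3′ on the gene's strand. Capitals mark the unbroken run of C and T from the start, where that run begins with C and holds at least 4 further bases of C or T, up to the end of the window. The first 5 genes had the largest differences between the lines or belong to the P stalk, the next 3 were among the most variable over time, and the last 3 followed the family least.
RPLP0, chr12:120201097-120201126, minus strand: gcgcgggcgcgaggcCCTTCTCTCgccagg
RPLP1, chr15:69452803-69452832, plus strand: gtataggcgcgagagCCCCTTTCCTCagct
RPLP2, chr11:809952-809981, plus strand: ttgcgtcggcgccttCCTTTTCCTCCCTgt
RPSA, chr3:39406705-39406734, plus strand: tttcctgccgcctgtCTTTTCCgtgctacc
RPL27A, chr11:8682777-8682806, plus strand: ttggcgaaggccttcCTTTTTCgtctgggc
RPS27, chr1:153990747-153990776, plus strand: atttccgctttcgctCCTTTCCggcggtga
RPL39, chrX:119791616-119791645, minus strand: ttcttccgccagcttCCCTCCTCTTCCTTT
RPS21, chr20:62387088-62387117, plus strand: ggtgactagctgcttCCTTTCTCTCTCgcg
RPL10A, chr6:35468386-35468415, plus strand: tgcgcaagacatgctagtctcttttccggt
RPS26, chr12:56041903-56041932, plus strand: gagacacataacctcgattttcttccgcca
RPL28, chr19:55385917-55385946, plus strand: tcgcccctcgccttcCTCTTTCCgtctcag

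Coordinates are on GRCh38.p14. Starts were found for 62 of the 76 members, and 46 of these 62 (74.2%) had at least 1 start with such a run, against 5.14% of all 27305 genes with a listed start. When the run was allowed to begin anywhere within 10 bases of the start on the same strand, 57 members (91.9%) and 38.4% of all genes held it. The shown starts of RPL10A and RPS26 do not open with the run. A match describes the sequence and is not a measured start of these cells' mRNA. The members' genes are spread over 21 chromosomes, with 12 of the 76 on chromosome 19 and 7 on chromosome 3.

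Most members were among the abundant mRNAs of both lines, and a few were barely present. The highest mean level over all libraries was that of RPLP1, an acidic protein of the P stalk that recruits elongation factors, at 2484 FPKM, followed by RPL35 at 1814, RPS2 at 1760.4, RPLP0 at 1670.1 and RPLP2 at 1558 FPKM. The median member stood between 378 and 528 FPKM in the DBTRG-05MG libraries and between 561 and 891 FPKM in the U87 libraries. At the other end RPL13A averaged 33.8 FPKM, RPS10 2.96, RPL36A 1.43 and RPL17 1.17 FPKM. RPL21 reached at most 0.20 FPKM and was listed at 0 in 6 libraries, and it alone of the 76 did not pass the filter of a mean of 1 FPKM, which left 75 members among 12352 tested genes. Many members have near-identical pseudogene copies, and estimated counts can divide reads among copies, so the low values of these genes are uncertain. The 21 pseudogene rows of the family in the table summed to between 31.8 and 71.4 FPKM.

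Ribosomal protein mRNA made up a larger part of the measured transcriptome in U87 than in DBTRG-05MG. The summed members accounted for 8.05, 9.74, 10.8, 10.1 and 10.5% of total FPKM in DBTRG-05MG at 0, 6, 12, 24 and 48 h. In U87 they accounted for 14.7, 14.5, 12.7, 10.8 and 15.8%. Every U87 library lay above every DBTRG-05MG library, but by very little at 24 h, where the U87 share was the same as the highest DBTRG-05MG share to 3 digits. As all values are shares of a library, more of these mRNAs per cell and less of other RNA cannot be told apart. The means were 13.7 ± 1.97% in U87 and 9.82 ± 1.07% in DBTRG-05MG (SD over 5 times, n = 5 libraries each), and the exact two-sided sign-flip test over the 5 times gave p = 0.0625, the smallest value that 5 pairs allow (0.0833 adjusted over the 4 summed measures tested this way). Without BCYRN1 in the total the means were 15.2 ± 1.98% and 10.0 ± 0.99%, again higher in U87 at 5 of 5 times. The large-subunit sum was 1.78 ± 0.11 times the small-subunit sum in U87 and 1.88 ± 0.08 times in DBTRG-05MG (exact p = 0.125, 0.125 adjusted).

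**Figure D1:**
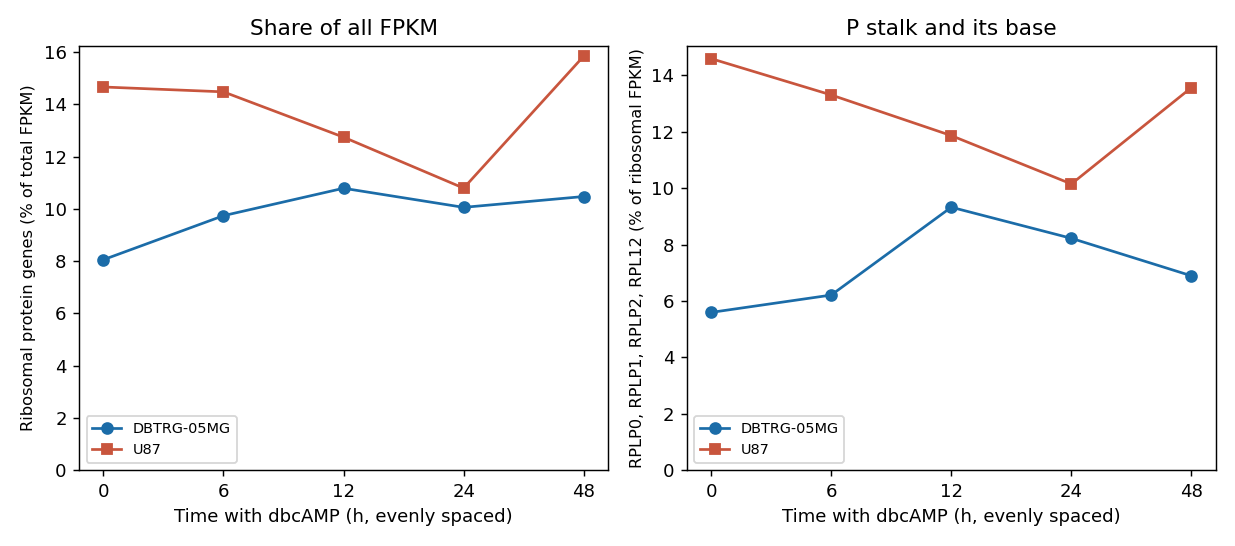
Left, summed FPKM of the 76 ribosomal protein genes as a percent of total FPKM, and right, summed FPKM of RPLP0, RPLP1 and RPLP2 as a percent of ribosomal FPKM, against time with dbcAMP in h for DBTRG-05MG (circles) and U87 (squares), 1 library per point. The axis label of the right panel also names RPL12, which is not in the plotted sum. In the left panel the U87 share lies above that of DBTRG-05MG at every time and is nearest to it at 24 h, at 10.8 and 10.1%.

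The difference between the lines was carried by many members. With time as a block, limma, applied to log2(FPKM + 1), called 41 of the 75 members higher in U87 and 2 lower, at a Benjamini-Hochberg adjusted p under 0.05 over all tested genes. With 1 library per line and time, these p-values measure how steady the difference was over the times, not the spread of replicate cultures. Of all tested genes, 19.7% were called higher in U87 and 35.2% lower (55.0% in either direction). The median difference was 0.61 on the log2 scale over the members and -0.18 over all tested genes. Both subunits contributed, with 23 of 45 tested large-subunit members called higher and 1 lower, and 18 of 30 small-subunit members higher and 1 lower. Without the 24 h library of either line, 50 members were called higher and 1 lower. With log values centred on each library's median, 56 were called higher and 0 lower, since this centring raised the difference of every gene by 0.27 log2 units. Of the 43 calls, 32, each higher in U87, were kept under every one of the 18 alternatives.

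The number of members separated by line depended on the 24 h libraries. Of the 75 members, 35 were higher in U87 at each of the 5 times, against 19.8% of all tested genes, and 1 was lower at each (35.3% of all genes). Leaving out the 24 h libraries of both lines raised the first count to 51, against 24.0% of all genes. For 23 members every U87 library lay above every DBTRG-05MG library (13.8% of all tested genes), and none showed the opposite (27.1%). Without the 24 h libraries these counts were 45 (17.2% of all genes) and 1 (28.7%). The median member difference between the lines at each time was 1.08 at 0 h, 0.86 at 6 h, 0.49 at 12 h, 0.13 at 24 h and 0.74 at 48 h on the log2 scale, beside -0.09, -0.03, -0.18, -0.36 and -0.30 over all tested genes.

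**Figure D2:**
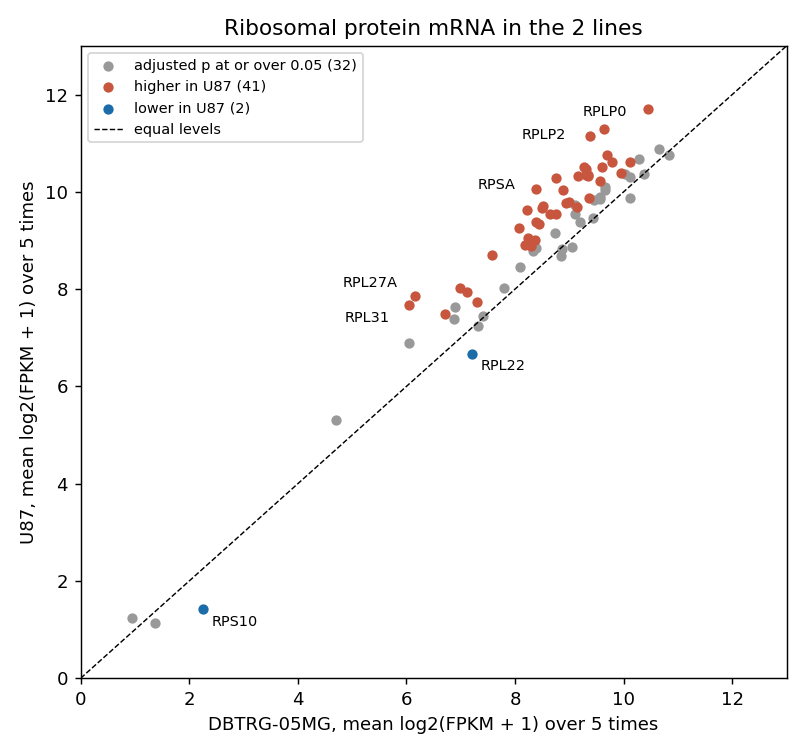
Mean log2(FPKM + 1) over 5 times of each of the 75 tested members in DBTRG-05MG (x) and U87 (y); red points were called higher in U87, blue points lower, and grey points had an adjusted p of at least 0.05. The 41 red points lie above the dashed line of equal levels, with RPLP2, RPLP0, RPSA, RPL27A and RPL31 among the farthest, and RPS10 and RPL22 lie below it.

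The P stalk, a flexible arm of the large subunit built from RPLP0, RPLP1 and RPLP2 on a base that includes RPL12, had a median difference between the lines of 1.45, and all 4 genes were called higher in U87. RPLP0, the stalk's scaffold, measured 566, 717, 974, 865 and 935 FPKM in DBTRG-05MG from 0 to 48 h and 2706, 2434, 2427, 2071 and 3007 FPKM in U87. The ranges do not overlap, and the difference was 1.66 ± 0.19 log2 units (SE; limma adjusted p = 9.362e-05). RPLP2 measured 447, 775, 929, 737 and 548 FPKM in DBTRG-05MG and 3259, 2898, 1798, 1235 and 2953 FPKM in U87. Its U87 libraries all lay above those of DBTRG-05MG, with the 24 h library lowest among them, and the difference of 1.78 ± 0.31 was the largest among the members (limma adjusted p = 0.001156).
RPLP1 measured 843, 1034, 2203, 1749.6 and 1567 FPKM in DBTRG-05MG and 4172, 3894, 3129, 1734 and 4515 FPKM in U87. Here the lines overlapped, because the U87 24 h library fell among the later DBTRG-05MG libraries. The difference was 1.25 ± 0.33 (limma adjusted p = 0.01084). RPL12 differed less, by 0.50 ± 0.17 (limma adjusted p = 0.03042), and this call was lost under 10 of the 18 alternatives. Together RPLP0, RPLP1 and RPLP2, without RPL12, supplied 12.7 ± 1.73% of ribosomal FPKM in U87 and 7.25 ± 1.52% in DBTRG-05MG (SD, n = 5 libraries each). Their share was higher in U87 at 5 of 5 times (exact sign-flip p = 0.0625, the smallest possible, 0.0833 adjusted).

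Other members with large differences sit at different sites of the ribosome. RPL27A, a large-subunit protein, was at 61.8, 84.6, 78.8, 69.8 and 59.9 FPKM in DBTRG-05MG and at 218, 239, 212, 254 and 241 FPKM in U87. Each line held a narrow level, without overlap, and the difference of 1.71 ± 0.14 had the lowest adjusted p of any member (limma, 9.684e-06). RPSA, at the mRNA exit side of the small subunit, was at 242, 314, 506, 346 and 304 FPKM in DBTRG-05MG and at 1277, 1140.4, 899, 681 and 1546 FPKM in U87, again without overlap (1.68 ± 0.26, limma adjusted p = 0.0005541). RPL31, at the rim of the exit tunnel through which the new protein leaves, had values between 44.7 and 90.6 FPKM in DBTRG-05MG, against a range of 87.6 to 329 FPKM in U87, overlapping only through the U87 24 h library (1.61 ± 0.31, limma adjusted p = 0.001817).
The counts that follow stand beside 41 of the 75 members called higher in U87 and 2 lower (19.7 and 35.2% of all tested genes). Differences between the sites were not tested. By site, 4 of 6 members at the mRNA exit and initiation face were called higher in U87, RPSA, RPS28 and RPS3A among them, with a median difference of 0.97. Of 8 members at the exit tunnel and its rim, 4 were called higher (RPL31, RPL4, RPL23A and RPL26), with a median of 0.43. The call of RPL26 was lost under 13 of the 18 alternatives and that of RPL23A under 6. Of 4 members at the mRNA entry and decoding site only RPS15 was called higher, a call lost under 11 of the 18 alternatives. In the 5S particle, which can bind MDM2 and so stabilise p53 when ribosome assembly fails, RPL11 was called higher (0.90 ± 0.18, limma adjusted p = 0.002057), and RPL5 differed by 0.17 ± 0.17 (limma adjusted p = 0.4314). Of the 8 measured genes mutated in Diamond-Blackfan anaemia, an inherited failure of red cell production, 4 were called higher (RPL11, RPS7, RPS19 and RPS24) and RPS10 lower. Among these the calls of RPS19 and RPS24 were lost under 10 and 7 of the 18 alternatives.

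Only RPS10 and RPL22 were called lower in U87. RPL22, an RNA-binding protein of the large subunit, measured 140, 183, 189, 125 and 111 FPKM in DBTRG-05MG and 135, 125, 87.3, 62.2 and 110.5 FPKM in U87. The ranges overlap, and the difference was -0.54 ± 0.20 (limma adjusted p = 0.04163). That call was lost under 10 of the 18 alternatives, with adjusted p-values from 0.01916 to 0.2779, including every fit that left out a library of 6, 12 or 24 h. Its paralog RPL22L1 reached at most 4.34 FPKM in DBTRG-05MG and at least 13.8 FPKM in U87, without overlap. RPS10, whose values spanned 1.59 to 7.02 FPKM in DBTRG-05MG but only 0.78 to 3.26 FPKM in U87, differed by -0.84 ± 0.24 (limma adjusted p = 0.01607), and this call was lost after median centring and whenever a 6 h or a 48 h library was left out. Its levels are among those noted as uncertain.

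Relative to the family's own median in each library, the composition of the set also differed between the lines. After that median was subtracted, limma called 9 members higher in U87 and 16 lower, where 5.95% of all tested genes were called higher and 70.3% lower on this scale (76.2% in either direction). The 5 largest on the higher side were RPLP2 (1.05 ± 0.24, limma adjusted p = 0.002396), RPL27A (0.98 ± 0.20), RPSA (0.95 ± 0.21), RPLP0 (0.93 ± 0.16) and RPL31 (0.88 ± 0.24). Among those on the lower side were RPS10 (-1.57 ± 0.30), RPL22 (-1.27 ± 0.18), RPL36A (-0.96 ± 0.17) and RPL18 (-0.91 ± 0.18). On this scale a member that differs less than the family's median counts as lower. Before the subtraction RPL36A and RPL18 were not called (-0.24 ± 0.15 and -0.18 ± 0.16, limma adjusted p = 0.2119 and 0.3474). RPS10 and RPL36A averaged 2.96 and 1.43 FPKM, uncertain levels at which the 1 FPKM added before the log shrinks differences. Leaving out each library in turn gave 19 to 31 members.

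Over time the values of the family are described for each line in turn, without a claim that the courses differ. The difference in trend between the lines was called for 0 of the 75 members by limma. At an unadjusted p under 0.05 there were 6, fewer in proportion than the 13.4% of all tested genes. In DBTRG-05MG, 72, 60, 58 and 57 of the 75 members were higher at 6, 12, 24 and 48 h than at 0 h, where 38.7, 50.0, 54.4 and 52.0% of all tested genes were higher. The median change was 0.28, 0.43, 0.38 and 0.43 on the log2 scale, beside -0.07, 0.00, 0.05 and 0.02 over all tested genes. At least 2-fold higher than at 0 h were 0, 13, 5 and 13 members (1.17, 2.47, 3.18 and 4.57% of all tested genes). Higher than 0 h at all 4 later times were 52 of the 75 (18.8% of all tested genes), while RPL10A and RPL36A were lower at all 4 (22.7%). These counts share 1 reference library, so a low value in it would raise all of them.

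In U87 the family was near its starting level at 6 h, lower at 24 h and above its starting level at 48 h. There 42, 17, 11 and 57 of the 75 members were higher than at 0 h at 6, 12, 24 and 48 h, beside 47.1, 43.8, 35.1 and 34.6% of all tested genes. The medians were 0.05, -0.14, -0.48 and 0.16, beside -0.01, -0.04, -0.15 and -0.15 over all genes. At 24 h 13 members were at least 2-fold lower (4.50% of all tested genes) and 1, RPL28, at least 2-fold higher (2.15%). The U87 24 h library thus stood apart for this family, between a 12 h and a 48 h library that both lay nearer to 0 h. With log values centred on each library's median its member median was -0.26, so part of the distance depends on the scale. Lower than 0 h at all 4 later times in U87 were 11 members (24.6% of all tested genes), and RPL23A and RPS28 were higher at all 4 (9.35%).

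**Figure D3:**
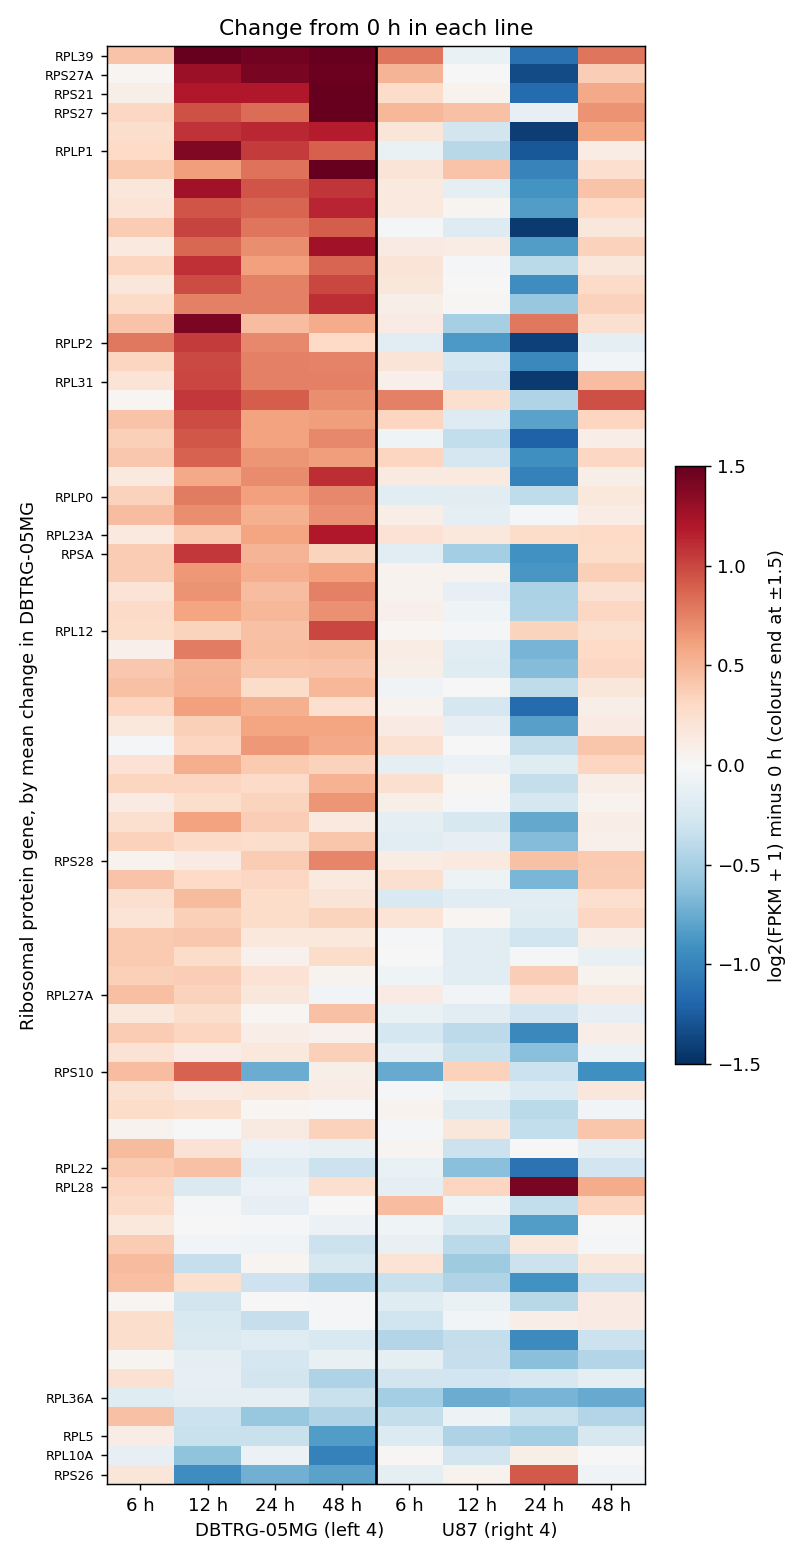
Change from 0 h in log2(FPKM + 1) of the 75 tested members (rows, ordered by their mean change in DBTRG-05MG, with some genes of the text labelled) at 6, 12, 24 and 48 h in DBTRG-05MG (left) and U87 (right), 1 library per column; red is higher and blue lower. Red dominates the upper rows in DBTRG-05MG, and the U87 24 h column is blue in 64 of 75 rows.

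Set side by side, most members differed from 0 h in the same direction in both lines at 48 h and in opposite directions at 24 h. At 48 h 51 members were higher than at 0 h in both lines (23.6% of all tested genes) and 12 differed in opposite directions (38.2%). At 24 h 6 were higher in both (15.1%) and 57 in opposite directions (58.0%). Across the 75 members, the changes at 48 h in DBTRG-05MG and U87 correlated with Pearson's r = 0.627, beside 0.359 over all tested genes. The changes at 6, 12 and 24 h correlated with r = -0.067, 0.058 and -0.487 over the members, beside 0.275, 0.085 and -0.164 over all genes. Over all 16 pairs of a DBTRG-05MG and a U87 time, r lay between -0.503 (12 h with 24 h) and 0.704 (24 h with 48 h). These are descriptions across genes of the same libraries, which are not independent replicates.

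No change over time common to both lines passed the test. With cell line as a block, limma called 0 of the 75 members at 6, 12, 24 or 48 h against 0 h, where 0.0081, 0.0081, 0.0081 and 0.0% of all tested genes were called. At an unadjusted p under 0.05 there were 0, 0, 0 and 5 members, where 5.31, 4.47, 3.51 and 12.2% of all tested genes passed. These tests set the mean of the lines against their disagreement, which had a median SD of 0.30 log2 units over the members and 0.27 over all tested genes. The largest mean changes at 48 h were those of RPL39, a very small protein of the exit tunnel, at 1.24 ± 0.61 (limma adjusted p = 0.4558), and of RPS27, at 1.21 ± 0.35 (limma adjusted p = 0.2091). For a trend over the rank of time common to both lines, limma called 0 members (0.0% of all genes; 8 at an unadjusted p under 0.05, where 15.1% of all genes passed), and for a difference in trend between the lines it also called 0 (0.0162% of all genes; 6 unadjusted, where 13.4% passed).
Within DBTRG-05MG, RPL23A, a docking site for factors at the tunnel exit, was the only member called, with a slope of 0.28 ± 0.06 log2 units per step of time (limma adjusted p = 0.04882; 1.12% of all genes were called; 24 members at an unadjusted p under 0.05, where 17.9% of all genes passed). It measured 225, 249, 295, 340 and 518 FPKM from 0 to 48 h in DBTRG-05MG and 412, 480, 458, 498 and 507 FPKM in U87. The call is fragile: no member was called under 15 of its 18 alternatives, 2 with time in hours, 2 without the U87 48 h library and 9 without the U87 24 h library. Within U87, limma called 0 members (0.0% of all genes; 3 unadjusted, where 12.5% passed). A trend within a line uses the scatter around both lines' trends as its error.

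RPL39, RPS27A, RPS21 and RPS27 had the largest mean change from 0 h in DBTRG-05MG, a description that carries no test. RPL39 measured 161, 217, 534, 441 and 516 FPKM in DBTRG-05MG and 433, 756, 404, 199 and 755 FPKM in U87. RPS27, whose zinc-binding protein sits on the small subunit, measured 298, 370, 579, 532 and 1007 FPKM in DBTRG-05MG and 718, 1018, 971, 660 and 1146 FPKM in U87. RPS21 measured 169, 179.9, 389, 392 and 508 FPKM in DBTRG-05MG and 817, 989, 846, 367 and 1217 FPKM in U87. In each of the 3 the DBTRG-05MG libraries from 12 h onward lay above the 0 and 6 h libraries, and the U87 24 h library was the lowest of its line. RPS27A, made as a fusion with ubiquitin, measured 35.7, 36.6, 88.7, 97.5 and 100.7 FPKM in DBTRG-05MG and 126, 179.9, 125, 49.0 and 163 FPKM in U87, the same pattern.
Across the 75 members, Spearman's rho between the length of the transcript and the change was 0.05, -0.02, -0.2 and -0.25 at 6, 12, 24 and 48 h in DBTRG-05MG. The U87 values were -0.23, -0.15, 0.18 and -0.18.

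Most members varied together from library to library. For each member, the deviations from its mean in each line were compared with those of the family's median over the 10 libraries; the median correlation was 0.807, 52 of 75 members exceeded 0.5 and 22 exceeded 0.9. The closest were RPS18 (r = 0.981), RPS19 (0.976) and RPL23 (0.973). Each member was left out of the median it was compared with. All members share the same libraries, so these values describe the set and carry no test.

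RPS26, RPL28, RPL10A and RPS3 were among the members that followed the family least, and 11 of the 75 had a correlation under 0. RPS26, which contacts the mRNA upstream of the start codon, measured 1038, 1182, 543, 628 and 594 FPKM in DBTRG-05MG and 852, 769, 885, 1614 and 824 FPKM in U87 (r = -0.839). It was lowest in DBTRG-05MG from 12 h onward, when the family was high, and highest in the U87 24 h library, when the family was low. RPL28 measured 182, 229, 157, 172 and 216 FPKM in DBTRG-05MG and 305, 278, 383, 824 and 451 FPKM in U87 (r = -0.609), with its highest value in the same U87 24 h library.
RPL10A measured 598, 548, 394, 563 and 295 FPKM in DBTRG-05MG and 465, 472, 385, 493 and 466 FPKM in U87 (r = -0.426). It was lowest in the DBTRG-05MG 48 h library and nearly level in U87. RPS3, which lines the mRNA entry site, had r = -0.31. For none of RPS26, RPL28 and RPL10A did the difference in trend between the lines pass the test (0.35 ± 0.16, 0.26 ± 0.16 and 0.21 ± 0.12 log2 units per step, limma adjusted p = 0.3783, 0.4695 and 0.4472).

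**Figure D4:**
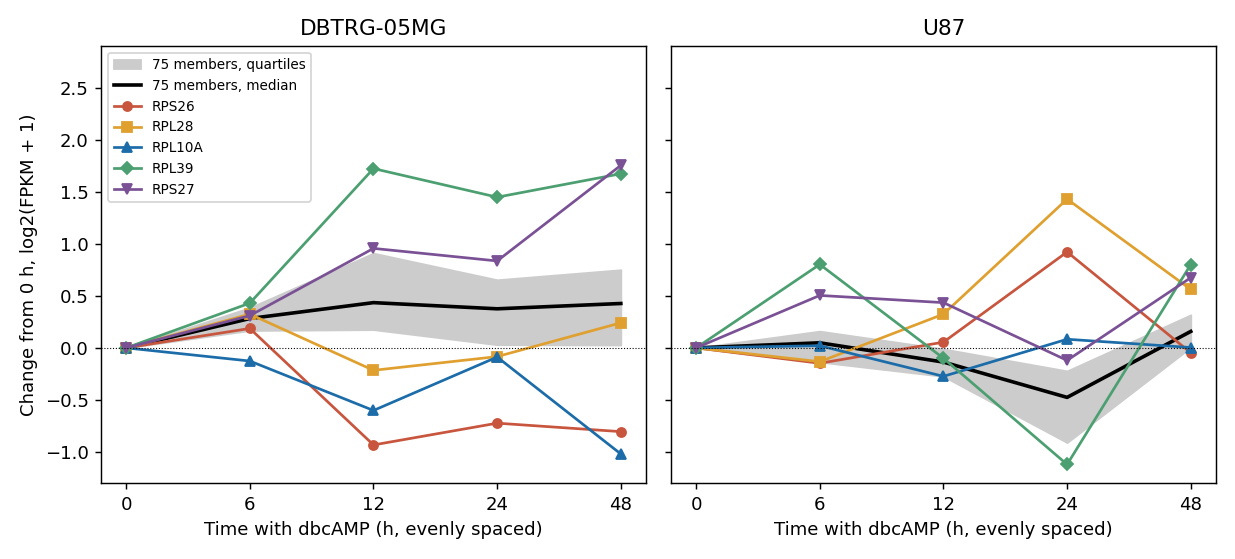
Change from 0 h in log2(FPKM + 1) against time in DBTRG-05MG (left) and U87 (right); the black line and grey band give the median and quartiles of the 75 members, and coloured lines give RPS26, RPL28, RPL10A, RPL39 and RPS27, 1 library per point. In the U87 24 h library RPS26 and RPL28 lie above the band at 0.92 and 1.43 while RPL39 lies below it at -1.12.

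Other parts of the translation machinery were compared with the ribosomal proteins. Of 20 tested translation factors and other mRNAs known to carry TOP tracts, 12 were called higher in U87 and 0 lower, with a median difference of 0.61, and each of those 12 separated the lines without overlap. Of 72 tested mitochondrial ribosomal proteins, which belong to a separate ribosome, 6 were called higher in U87 and 27 lower, with a median of -0.23. The counts of these lists stand beside 19.7% called higher and 35.2% called lower over all tested genes, and the difference between the lists was not tested. Of 44 nucleolar assembly factors, which build both subunits, 6 were called higher and 8 lower, and of 13 genes of RNA polymerase I and its factors, which make ribosomal RNA, 0 were called higher and 6 lower. Of 17 tested genes of mTORC1, MYC and TOP regulation, 2 were called higher in U87 (AKT1S1 and RPS6KB2) and 7 lower, MYC among them. Of 8 tested paralogs and ubiquitin fusion genes of the family outside the naming rule, RPL22L1 and RPL36AL were called higher in U87 and none lower.

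The nucleolar factors were also followed over time. In DBTRG-05MG the median nucleolar factor changed by 0.27, 0.10, -0.13 and -0.25 at 6, 12, 24 and 48 h, while the median ribosomal protein gene stayed above its 0 h level. In U87 the nucleolar medians were 0.33, -0.04, -0.31 and -0.79, and at 48 h 40 of the 44 were lower than at 0 h while 57 of 75 ribosomal protein genes were higher. None of the 44 passed the limma test at 48 h (18 at an unadjusted p under 0.05, where 12.2% of all genes passed) or for the common trend (25 unadjusted, where 15.1% passed), and the difference between the lists was not tested. Mitochondrial ribosomal proteins had medians of 0.03 in DBTRG-05MG and -0.30 in U87 at 48 h. MYC measured 32.6, 40.4, 21.8, 19.7 and 14.2 FPKM in DBTRG-05MG and 19.5, 13.8, 15.1, 12.1 and 17.6 FPKM in U87. DDIT4, an inhibitor of mTORC1, was the only regulator called within DBTRG-05MG, with a slope of 0.78 ± 0.12 per step (limma adjusted p = 0.02356). It measured 17.3, 20.2, 56.6, 105 and 122 FPKM there. In U87, where it was also above its 0 h level at every later time, it measured 47.6, 83.5, 142, 107 and 81.5 FPKM.

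Properties of the libraries and transcripts were set beside the family's changes. Over 11009 tested genes with an annotated transcript, Spearman's rho between the change from 0 h and the transcript's GC content was -0.04, -0.34, -0.21 and -0.04 at 6, 12, 24 and 48 h in DBTRG-05MG. In U87 it was -0.16, 0.11, 0.37 and 0.22. The relation was strongest at 12 h in DBTRG-05MG and at 24 h in U87, and it was near 0 at 48 h in DBTRG-05MG, where the family's median change was as large as at 12 h. Among the 75 members, all of which had a value, rho was 0.03, -0.16, -0.05 and -0.04 at those times in DBTRG-05MG, while U87 gave -0.16, 0.13, 0.12 and 0.23, and their median GC content of 49.7% equalled that of all tested genes. The part of GC content in the family's changes was not tested. A list of 9 abundant non-coding and histone RNAs, drawn up with RNA quality in mind, had median changes of -0.02, -0.28, 0.50 and 0.77 in DBTRG-05MG. In U87 its medians were 0.17, 0.06, 0.02 and 0.28. In DBTRG-05MG 3 of the 9 were at least 2-fold higher at 48 h, the histone genes HIST1H1C, HIST1H2BD and HIST1H4H. BCYRN1 went from 13862 FPKM at 0 h to 5932 FPKM at 48 h there. Whether these changes reflect RNA quality was not tested. The histone gene HIST1H2BD of this list, at 14.9 FPKM at 0 h and 67.2 FPKM at 48 h, was called in the trend within DBTRG-05MG (0.52 ± 0.08 per step, limma adjusted p = 0.02032). The 4 tested glioma markers had a median change of -0.50 at 48 h in DBTRG-05MG, and that library had the lowest median correlation with the other libraries of its line, at 0.933. The part of these in the family's changes was not tested. By start, 45 tested members had a C and T run, 16 a listed start without it and 14 no listed start. Median changes of the first and second group lay farthest apart at 12 h for DBTRG-05MG, 0.59 beside 0.28. For U87 this was 24 h, with -0.63 beside -0.34. The third group had 0.43 and -0.61 there. At 6, 24 and 48 h DBTRG-05MG gave 0.32, 0.435 and 0.426 with the run, beside 0.23, 0.25 and 0.13 without. U87 medians at 6, 12 and 48 h were close, at 0.03, -0.14 and 0.15 beside 0.05, -0.18 and 0.13. Median differences between the lines were 0.60, 0.69 and 0.60 for the groups in the same order. Differences between the groups were not tested.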

How the data were processed

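The authors deposited 1 table of gene values for 10 poly(A) RNA libraries. The unit of the deposited values is not given in the sources used here; it was read as FPKM from the values, with 0.002 read as 0. The submitters' processing notes name HISAT, Bowtie2, RSEM and hg38. Dose and times follow the sample labels, from which the series' design text departs. Genes averaging at least 1 FPKM (75 members of 12352) were fitted as log2(FPKM + 1) in limma 3.58.1 (R 4.3.3), using a mean-variance trend and Benjamini-Hochberg adjustment across all of them. Time tests held cell line as a block, since the same line was sampled at each time, line tests held time, and slopes used the rank of time. The code was tested on simulated data. Members named are the 5 largest differences each way per test, the 5 highest, 5 lowest and 5 least like the family, and fixed lists; RPS18, RPL23, RPL36 and RPL38 were chosen after their values were seen. Not every member covered by this rule is reported here. Members and lists were chosen with earlier results of these data known. Starts are from RefSeq, positions and transcripts from GENCODE 29. Alternatives varied the pseudocount, filter, scaling, variance trend, block and time scale and left out each library. Python 3.11.15, pandas 2.3.3, scipy 1.17.1 and matplotlib 3.10.9 were used.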

Additional observations from a re-analysis of the deposited data

Results flagged for a closer look

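In 3 of the 75 members (4.0%, beside 3.24% of all tested genes) every later DBTRG-05MG library lay above 0 h and every later U87 library below it, and none showed the reverse (1.73% of all genes). They were RPL36, RPL38 and RPLP2. The difference in slope, U87 minus DBTRG-05MG, was -0.13 log2 units per step of time for RPL36, -0.12 for RPL38 and -0.20 for RPLP2. None of the 3 differences passed the limma test of the slope (adjusted p = 0.5562, 0.5562 and 0.6605). The share of such members was close to that of all tested genes, so the count does not set the family apart. RPL38 measured 1182, 1315, 1416, 1204 and 1599 FPKM in DBTRG-05MG and 1457, 1356, 1294, 1196 and 1343 FPKM in U87. RPL36 measured 624, 725, 672, 697 and 798 FPKM in DBTRG-05MG and 1072, 975, 851, 693 and 1009 FPKM in U87.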

How the results depend on the processing

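With 1 library per line and time, p-values measure disagreement between the lines, or scatter around a trend, and not the spread of replicate cultures. Without subtraction of the family's median, the tests at 6, 12, 24 and 48 h and the common trend called 0 members under every alternative tried. Without the replicate block the line difference gave 42 members in place of 43, the difference relative to the family's median 30 in place of 25, and the tests at each time and the common trend 0, so dropping the pairing by line or time moved no count by over 1.5 times; RPL22 alone among members called lower lost its call. Leaving out each library gave 34 to 51 members for the line difference and 19 to 31 relative to the family's median. Leaving out a library from a paired fit leaves its partner with no weight in the difference, so both libraries of a time give nearly the same value.

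The trend within DBTRG-05MG gave 1 member, and 0 with a pseudocount of 0.1, with no filter, with a filter at 10 FPKM, with median centring, upper-quartile scaling, equal totals without BCYRN1 or no mean-variance trend. It gave 2 with time in hours, and 0 to 9 when each library was left out, the 9 without the U87 24 h library. These alternatives were chosen after seeing the data. The common trend relative to the family's median gave 0 members and, over the fits without 1 library, 0 to 4, the 4 (RPS27, RPS21, RPL5 and RPL35) without the U87 24 h library. The cause was not tested.

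No called value changed direction. Values without a call changed sign in 54 cases of single members and settings, 99 lost a call, 58 gained one and 3034 did neither.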
